A study of Mus musculus with 42 samples.

Results

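Levels of messenger RNA were followed for 10 genes of the inflammasome and of pyroptosis in mouse bone-marrow-derived macrophages. The genes were chosen by name and role, and were the sensors Nlrp3, Nlrc4, Aim2 and Mefv, the adaptor Pycard, the proteases Casp1, Casp4 and Casp8, and the effectors Gsdmd and Ninj1. Each symbol matched 1 of the 37310 genes in the count table, and all 10 passed the filter on low counts that left 11624 genes for testing.

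Inflammasomes are protein complexes that assemble in the cytosol when a sensor meets a microbial product or a sign of cell damage. The sensor recruits the protease caspase-1, in most cases through the adaptor ASC, and caspase-1 then matures the cytokines IL-1β and IL-18 and cuts gasdermin D, whose freed fragment makes pores in the plasma membrane. In macrophages a first signal such as lipopolysaccharide (LPS), a component of the outer membrane of Gram-negative bacteria, raises the transcription of some components, a step called priming, while assembly usually needs a further signal. Counts of RNA bear on the transcript level alone, and neither assembly, cleavage nor cell death was measured here.

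The study asked how saturated fat and LPS change macrophages that carry or lack the transcription factor IRF5. Macrophages were grown from the marrow of femurs and tibias of male mice on a C57BL/6 J background with medium conditioned by L929 cells, and total RNA was sequenced from 42 libraries in 14 groups of 3. The libraries labelled WT came from wild-type mice, and those labelled KO from mice in which Irf5 flox/flox (C57BL/6-Irf5tm1Ppr/J) was combined with LysM-Cre (B6.129P2-Lyz2tm1(cre)Ifo/J), a recombinase driven from the Lyz2 locus that is active in myeloid cells. Each genotype was sampled without treatment (Control) at 0, 2 and 24 h, with palmitate, the saturated fatty acid, at 2 and 24 h, and with LPS at 2 and 24 h. The labels do not say whether the 3 libraries of a group came from separate mice or cultures, so p-values measure the spread between libraries, which may be technical. Whether Control cells received the ethanol and albumin in which palmitate was dissolved is not given in the sources used here, so palmitate and its carrier cannot be told apart. The libraries of a group are numbered 1 to 3 by their order in the table.

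Libraries held between 2848793 and 7743442 counts, with a median of 5625399, and the shallowest was KO LPS 2 h library 1. All 6 macrophage markers were detected in every library. Values were expressed as CPM, counts scaled to a common library size. Irf5 was not lower under the KO label, with 267 to 430 CPM there against 210 to 389 CPM under the WT label. These are whole-gene totals in which the deleted exons were not counted apart. Except with palmitate at 2 h, each KO library was above each WT library of its condition. At Control 0 h the values were 279 to 328 CPM in KO against 210 to 230 CPM in WT. The highest KO value of Lyz2, the gene that carries the recombinase, was below the lowest WT value in each of the 7 conditions. KO and WT below therefore mean the labels. Markers of granulocyte precursors summed to between 69.6 and 598 CPM over the 42 libraries, and all 4 erythroid markers never passed 3 counts.

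The sensors differ in what they detect. NLRP3 (Nlrp3, ENSMUSG00000032691, GRCm38 chr11:59541568-59566956, plus strand) responds to loss of potassium and to other cell stress. NLRC4 (Nlrc4, ENSMUSG00000039193, chr17:74425438-74459142, minus strand) is engaged by NAIP proteins that bind flagellin or secretion needles. AIM2 (Aim2, ENSMUSG00000037860, chr1:173350879-173466040, plus strand) binds DNA in the cytosol, and its gene overlaps Cadm3 on the other strand without sharing an exon. Pyrin (Mefv, ENSMUSG00000022534, chr16:3707218-3718097, minus strand) responds to toxins that inactivate RhoA. The adaptor ASC is encoded by Pycard (ENSMUSG00000030793, chr7:127989708-127993867, minus strand).

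Caspase-1 (Casp1, ENSMUSG00000025888, chr9:5298517-5307265, plus strand) and caspase-4 (Casp4, also known as caspase-11 in the mouse, ENSMUSG00000033538, chr9:5308828-5336783, plus strand) are encoded by neighbouring genes. Caspase-4 binds LPS in the cytosol and cuts gasdermin D without caspase-1. Caspase-8 (Casp8, ENSMUSG00000026029, chr1:58795374-58847503, plus strand) starts apoptosis downstream of death receptors and can also cut gasdermin D. Gasdermin D (Gsdmd, ENSMUSG00000022575, chr15:75862327-75867408, plus strand) is the pore former, and ninjurin-1 (Ninj1, ENSMUSG00000037966, chr13:49187485-49196244, plus strand) ruptures the plasma membrane of dying cells.

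The stretches before the start sites of Nlrp3, Mefv, Casp1 and Casp4 are shown because Nlrp3, Mefv and Casp4 rose the most of the 10 genes at 2 h of LPS and Casp1 is the neighbour of Casp4. They are RefSeq sequences of GRCm38.p6, limited to bases outside annotated exons and written 5′ to 3′ on the strand of the gene, at chr11:59541319-59541567 (plus strand) for Nlrp3, chr16:3718125-3718374 (minus strand) for Mefv, chr9:5298267-5298516 (plus strand) for Casp1 and chr9:5308599-5308827 (plus strand) for Casp4. Capitals mark matches to the κB motif, bound by NF-κB factors.

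Nlrp3: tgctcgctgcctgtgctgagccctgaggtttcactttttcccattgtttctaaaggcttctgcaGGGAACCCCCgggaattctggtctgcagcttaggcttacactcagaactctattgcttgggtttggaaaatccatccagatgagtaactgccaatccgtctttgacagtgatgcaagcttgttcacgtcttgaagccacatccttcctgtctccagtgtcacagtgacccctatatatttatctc

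Mefv: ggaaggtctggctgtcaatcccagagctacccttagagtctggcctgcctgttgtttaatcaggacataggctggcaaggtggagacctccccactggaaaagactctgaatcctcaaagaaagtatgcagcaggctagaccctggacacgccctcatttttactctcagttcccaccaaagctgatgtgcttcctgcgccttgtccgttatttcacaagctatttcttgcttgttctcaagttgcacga

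Casp1: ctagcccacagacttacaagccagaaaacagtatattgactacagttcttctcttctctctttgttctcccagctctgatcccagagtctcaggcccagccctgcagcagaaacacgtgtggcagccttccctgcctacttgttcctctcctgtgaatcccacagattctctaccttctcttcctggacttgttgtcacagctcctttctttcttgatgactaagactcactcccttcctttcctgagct

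Casp4: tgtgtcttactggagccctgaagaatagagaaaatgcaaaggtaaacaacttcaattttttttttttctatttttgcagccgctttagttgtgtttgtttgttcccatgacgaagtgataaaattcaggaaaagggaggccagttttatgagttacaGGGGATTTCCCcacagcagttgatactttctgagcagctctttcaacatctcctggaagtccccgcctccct

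RefSeq windows were held for 9 of the 10 genes, in 11 windows, and Gsdmd had none. The whole 250 bases before each start, annotated exons included, were searched on both strands for κB, for the interferon-stimulated response element (GAAA, any 2 bases, then GAAA), for the STAT site (TTCNNNGAA) and for AP-1 (TGANTCA). The κB motif matched in Nlrp3, 186 bases before 1 of its start sites, and in Casp4, where overlapping matches began 93 and 92 bases before 1 start site and 104 and 103 before the other. Of the other windows none held a match to any of the 4 motifs. Over 32851 promoter windows, 3.899% held κB, 2.977% the interferon element, 7.02% the STAT site and 6.749% AP-1, so most promoters hold none of these letters in so short a stretch. A match describes letters and not binding.

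Levels between genes were compared as CPM per kilobase of exon. Ninj1 had the highest level in 13 of the 14 groups, with group means from 179 (KO Control 24 h) to 285 CPM per kb (WT LPS 2 h). The exception was KO LPS 2 h, where Nlrp3 stood at 276 ± 3.84 and Ninj1 at 258 ± 10.1 CPM per kb (mean ± SD, n = 3), and with the length of the longest transcript Ninj1 was first there too. Nlrp3 stood at 5.01 ± 0.637 CPM per kb in WT Control 0 h and at 231 ± 14.5 in WT LPS 2 h. Casp4 was the lowest in the 10 Control and palmitate groups and stood at 1.92 ± 0.065 CPM per kb in WT Control 0 h, although with the length of the longest transcript it was not the lowest in 4 of those groups. After LPS the lowest was Pycard at 2 h and Nlrc4 at 24 h, in both genotypes. Casp1, Casp8 and Gsdmd followed Ninj1 in the Control groups. In WT Control 0 h these 3 genes stood at 23.2 ± 2.69, 27.7 ± 1.87 and 17.8 ± 2.01 CPM per kb, with no overlap between them. Casp1 and Casp8 overlapped in the other 5 Control groups. With the length of the longest transcript Gsdmd, at 23.7 CPM per kb, came before Casp1, at 23.2, in WT Control 0 h.

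**Figure D1:**
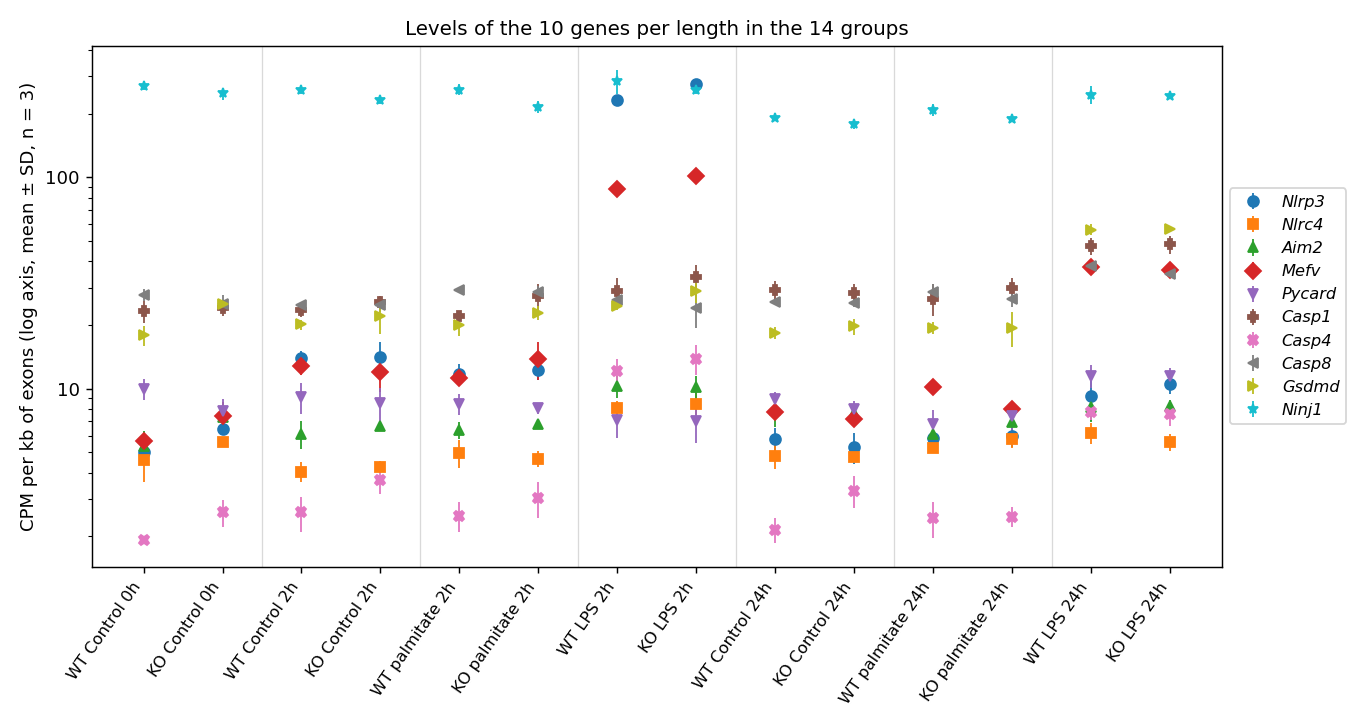
Level of each of the 10 genes in CPM per kilobase of exon on a log axis, in each of the 14 groups, as the mean of 3 libraries with SD bars. Ninj1 lies at 179 to 285 CPM per kb throughout, whereas Nlrp3 reaches 231 in WT and 276 in KO at LPS 2 h.

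Across the 14 groups the range of levels split the genes. The highest group mean was 55.1 times the lowest for Nlrp3, 17.9 times for Mefv and 7.19 times for Casp4. For Gsdmd it was 3.18 times, and for the remaining 6 genes it lay between 1.58 times (Casp8) and 2.19 times (Casp1). Gene levels are CPM scaled by the trimmed mean of M-values, sums of markers are unscaled CPM, and fold changes, their standard errors (SE) and adjusted p-values come from edgeR's quasi-likelihood test over all 11624 genes, with an adjusted p under 0.05 as the threshold. In bulk RNA fewer cells that express a gene and less RNA per cell cannot be told apart.

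**Figure D2:**
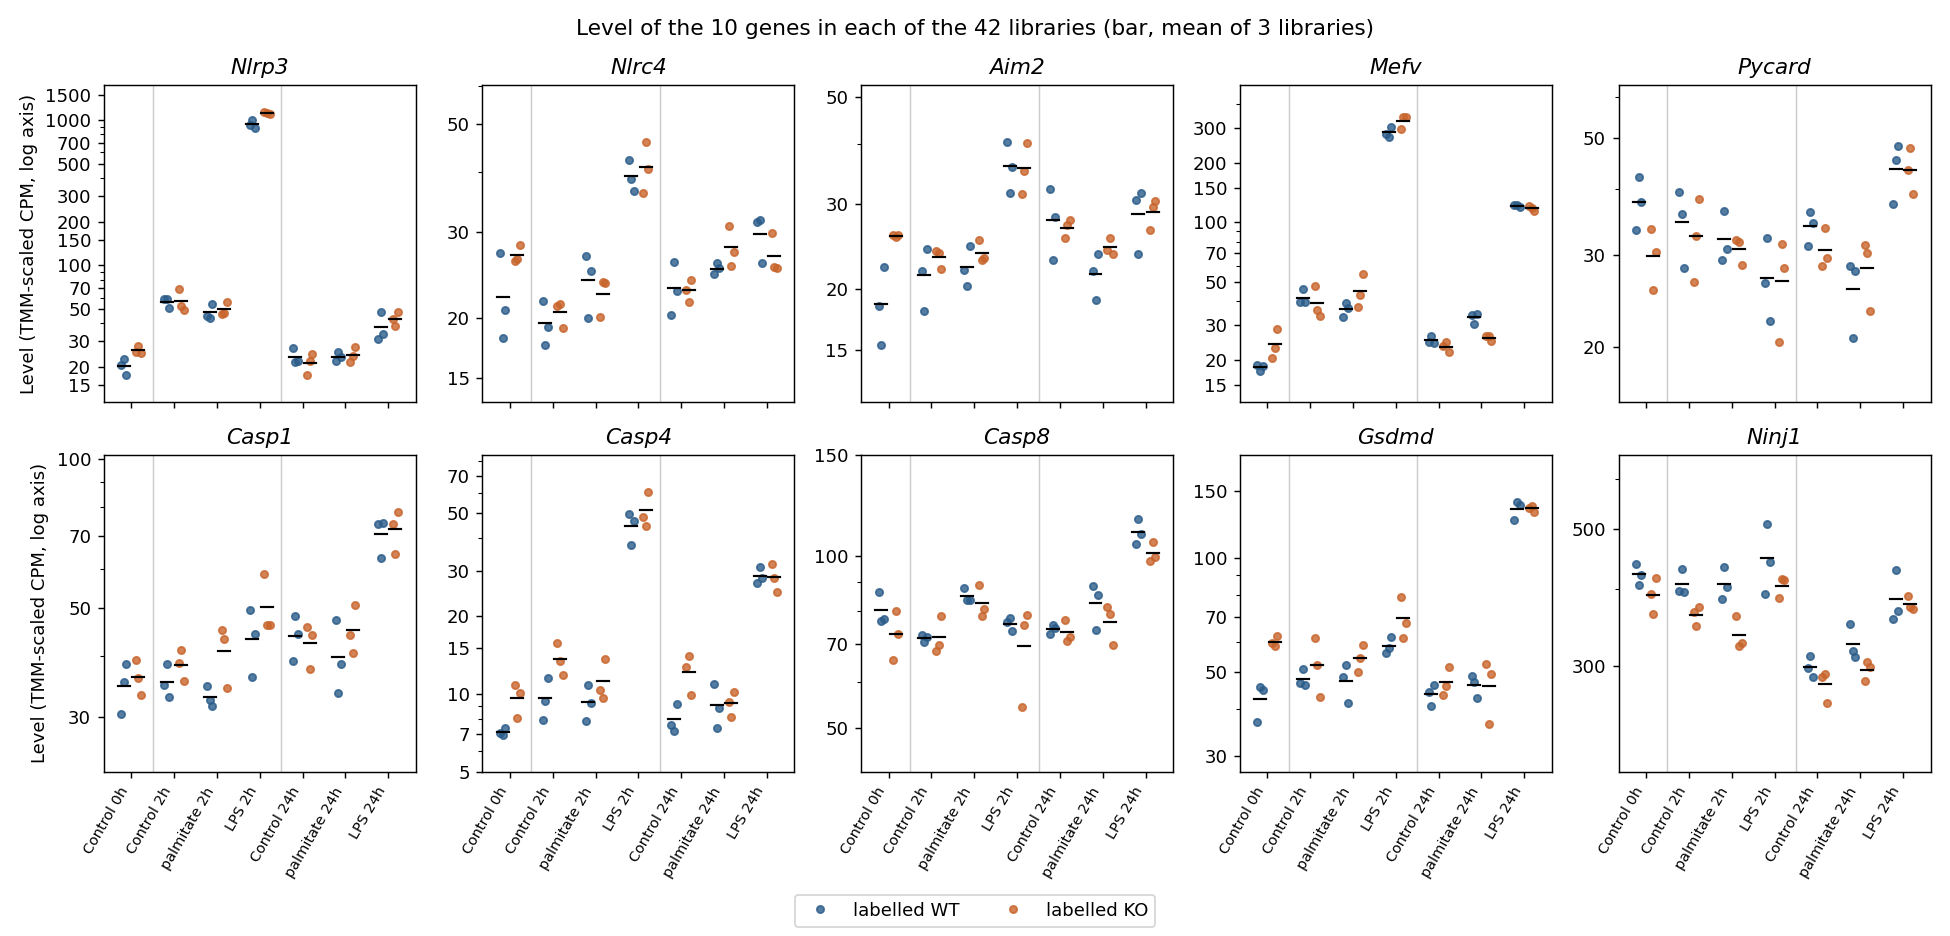
TMM-scaled CPM on a log axis of the 10 genes, 1 panel a gene, with 1 point per library, a bar at each group mean, and WT (blue) and KO (orange) side by side in each of the 7 conditions. The LPS 2 h libraries of Nlrp3 lie between 881 and 1135 CPM, above every other group.

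The comparison of LPS with Control at 2 h addresses which components rise in priming. In WT, 5 of the 10 genes were higher and none lower, where 23.1% of all genes tested changed, 14% higher and 9.1% lower. In KO, 7 were higher and none lower, where 23.9% of all genes changed, 14.7% higher and 9.16% lower. The 5 of WT were the 4 sensors Nlrp3, Nlrc4, Aim2 and Mefv together with Casp4, and the same 5 passed in KO. The median log2 fold change of the 10 genes was 0.51 in WT and 0.51 in KO, and that of all genes tested was -0.01 in either genotype. Markers of granulocyte precursors moved too, with 4 of 7 tested higher in WT and 2 in KO and summed levels of 69.6 to 80.3 CPM in WT Control, 84.8 to 115 CPM in WT LPS, 125 to 203 CPM in KO Control and 170 to 269 CPM in KO LPS. Of the 6 macrophage markers 1 was lower in each genotype, and the part of these markers was not tested.

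Nlrp3 had 58.8, 59.2 and 51.3 CPM in WT Control and 933, 998 and 881 CPM in WT LPS at 2 h. It had 69.3, 52.6 and 49.4 CPM in KO Control and 1135, 1118 and 1104 CPM in KO LPS. Every LPS library was far above every Control library. The rise was 16.6-fold in WT (log2 4.06, SE 0.11, adjusted p = 1.39e-34) and 19.6-fold in KO (log2 4.29, SE 0.11, adjusted p = 1.77e-35), the largest of the 10 genes at 2 h.

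Mefv had 39.3, 45.7 and 39.4 CPM in WT Control and 283, 271 and 305 CPM in WT LPS. In KO the pyrin gene had 47.6, 35.8 and 33.6 CPM in Control and 298, 344 and 344 CPM in LPS. Groups were again wide apart. The rise was 6.90-fold in WT (log2 2.79, SE 0.10, adjusted p = 8.87e-29) and 8.47-fold in KO (log2 3.08, SE 0.10, adjusted p = 1.92e-30).

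Nlrc4 and Aim2 rose less. Nlrc4 had 21.7, 17.5 and 19.1 CPM in WT Control and 42.2, 38.6 and 36.4 CPM in WT LPS, a 2.00-fold rise (log2 1.00, SE 0.13, adjusted p = 3.23e-08). In KO its values were 21.2, 21.3 and 19 CPM in Control and 36.1, 46.0 and 40.4 CPM in LPS, a 2.01-fold rise (adjusted p = 2.17e-08). The DNA sensor Aim2 had 21.9, 18 and 24.3 CPM in WT Control and 40.4, 31.6 and 35.8 CPM in WT LPS, 1.66-fold higher (adjusted p = 3.1e-05), and the KO rise was 1.54-fold (adjusted p = 0.000308). LPS and Control libraries of both genes did not overlap in either genotype.

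Among the proteases Casp4 stood apart. Casp4 had 7.94, 9.43 and 11.6 CPM in WT Control and 49.7, 37.8 and 46.8 CPM in WT LPS. Its KO libraries had 15.7, 13.4 and 11.9 CPM in Control and 48.6, 44.8 and 60.6 CPM in LPS. The lowest LPS library was above the highest Control library in both genotypes. The rise was 4.57-fold in WT (log2 2.19, SE 0.17, adjusted p = 1.15e-15) and 3.76-fold in KO (log2 1.91, SE 0.16, adjusted p = 2.86e-14).

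Its neighbour Casp1 had 34.8, 38.4 and 32.9 CPM in WT Control and 49.4, 36.2 and 44.2 CPM in WT LPS. These groups overlapped, and the log2 difference of 0.27 (95% interval 0.01 to 0.53) did not pass (adjusted p = 0.133). In KO the values were 38.5, 41 and 35.5 CPM against 58.5, 46.2 and 46.1 CPM, which did not overlap, and the 1.29-fold rise passed (adjusted p = 0.0289). That call was lost without KO Control library 1 or 3 or KO LPS library 1, over a range of log2 0.25 to 0.42. It was also lost when only the libraries compared were fitted (0.364). In WT a call was gained without WT LPS library 2, over 0.18 to 0.39.

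Casp8, the apical caspase, showed a log2 difference of 0.08 in WT (95% interval -0.10 to 0.27) and -0.02 in KO (-0.21 to 0.16). Its KO LPS libraries had 54.3, 75.6 and 78.7 CPM, the lowest in the shallowest library. Pycard lay at -0.35 in WT (-0.66 to -0.03, adjusted p = 0.109) and at -0.25 in KO (-0.57 to 0.07). The WT difference of this adaptor passed the threshold as lower without WT Control library 3 or WT LPS library 2, over a range of -0.52 to -0.21.

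The effectors differed little at 2 h. Gsdmd had 46.6, 50.8 and 46.1 CPM in WT Control and 56.2, 57.8 and 61.7 CPM in WT LPS, which did not overlap, at a log2 difference of 0.30 that stood at the threshold (adjusted p = 0.0508). In KO it had 61.5, 52.1 and 42.9 CPM against 79.0, 61.4 and 67.3 CPM, which overlapped, and the 1.31-fold rise passed (adjusted p = 0.00664). That call was lost without KO Control library 3 or KO LPS library 1, over a range of 0.25 to 0.51. It was also lost when only the libraries compared were fitted (0.385), a fit in which the WT difference passed (0.281). The log2 difference of Ninj1 was 0.14 in WT (adjusted p = 0.162) and 0.16 in KO (adjusted p = 0.11), and the WT value passed without WT LPS library 1, over 0.03 to 0.22. Counted by libraries that do not overlap, 7 of the 10 genes were separated in WT and 7 in KO, where 35.2% and 34.1% of all genes were.

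After 24 h of LPS the adaptor, the 3 caspases and both effectors were higher in WT and in KO. In WT, 9 of the 10 genes were higher than Control and none lower, and in KO 8 were higher and none lower, where 39.5% of all genes changed in WT (19.6% higher, 19.9% lower) and 40.9% in KO (19.9% higher, 21% lower). The same 8 genes passed in both, with Nlrc4 added in WT. The median log2 fold change was 0.62 in WT and 0.64 in KO, against -0.01 over all genes tested. The summed level of the 6 macrophage markers moved as well. It was between 5251 and 5334 CPM in WT Control and between 7855 and 8499 CPM in WT LPS, and between 5204 and 5301 CPM in KO Control and between 7707 and 7938 CPM in KO LPS, with 4 of the 6 markers higher and 2 lower in each genotype. The markers of granulocyte precursors summed to between 158 and 163 CPM in WT Control and between 434 and 598 CPM in WT LPS (2 of 7 tested higher, 3 lower), and to between 249 and 337 CPM in KO Control and between 399 and 491 CPM in KO LPS (1 higher, 4 lower). Of 3 dendritic cell markers tested, 2 were lower in KO and 0 called in WT. The part of these markers in the results was not tested.

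Gsdmd had 44.4, 40.6 and 46.3 CPM in WT Control and 126, 140 and 138 CPM in WT LPS at 24 h. It had 43.5, 45.9 and 51.4 CPM in KO Control and 136, 137 and 132 CPM in KO LPS. The libraries of LPS formed a tight group well above Control in both genotypes. The pore-forming gene rose 3.07-fold in WT (log2 1.62, SE 0.11, adjusted p = 2.46e-18) and 2.86-fold in KO (log2 1.51, SE 0.10, adjusted p = 1.59e-17).

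Ninj1 had 298, 312 and 289 CPM in WT Control and 357, 429 and 369 CPM in WT LPS, and rose 1.29-fold (adjusted p = 4.26e-05). Its KO libraries had 288, 292 and 262 CPM in Control and 390, 374 and 371 CPM in LPS, a 1.35-fold rise (adjusted p = 1.89e-06). The groups did not overlap, although the fold was small for the most abundant of the 10 transcripts.

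Casp1 had 39, 48.2 and 44.3 CPM in WT Control and 74.1, 63.1 and 74.3 CPM in WT LPS, 1.60-fold higher (adjusted p = 5.23e-06). In KO the rise was 1.71-fold (adjusted p = 3.35e-07). Casp4 had 7.58, 7.2 and 9.18 CPM in WT Control and 26.9, 31.1 and 28 CPM in WT LPS, 3.55-fold higher (log2 1.83, SE 0.18, adjusted p = 1.89e-12). In KO Casp4 had 12.7, 14 and 9.91 CPM against 31.9, 28 and 24.9 CPM, 2.34-fold higher (log2 1.23, SE 0.17, adjusted p = 2.15e-08). Casp8, at 73.0, 75.8 and 74.6 CPM in WT Control and 105, 116 and 109 CPM in WT LPS, rose 1.47-fold (adjusted p = 4.25e-07), and 1.38-fold in KO (adjusted p = 1.74e-05). None of these caspase groups overlapped.

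The sensors were less uniform at 24 h. Mefv had 24.7, 26.6 and 24.5 CPM in WT Control and 122, 123 and 120 CPM in WT LPS (4.81-fold, adjusted p = 1.81e-23), and the KO rise was 5.04-fold (adjusted p = 7.47e-24). Nlrp3 had 26.9, 21.6 and 22.1 CPM in WT Control and 31.1, 48.2 and 33.5 CPM in WT LPS, 1.62-fold higher (adjusted p = 5.05e-05), and in KO the rise was 1.96-fold (adjusted p = 5.66e-08). The Control and LPS libraries of both genes did not overlap. Aim2 did not pass in either genotype, at log2 0.06 in WT (95% interval -0.21 to 0.33) and 0.10 in KO (-0.17 to 0.36).

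Nlrc4 passed in WT at log2 0.35 (adjusted p = 0.0279), where WT Control library 2 at 26.1 CPM lay above WT LPS library 3 at 25.9 CPM, and had 0.24 in KO (95% interval -0.03 to 0.50). The WT call was lost without WT Control library 1 or 3 or WT LPS library 1 or 2, over a range of 0.29 to 0.46. It was also lost in the fit of all genes with a count (0.345). The adaptor gene Pycard rose in WT (log2 0.36, adjusted p = 0.0427) and in KO (1.41-fold, adjusted p = 0.00438). The WT call for Pycard was lost without any of the WT Control libraries and without WT LPS library 2 or 3, over 0.28 to 0.46. By libraries that do not overlap, 8 of the 10 genes were separated in WT and 9 in KO, where 48.1% and 50.2% of all genes were.

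**Figure D3:**
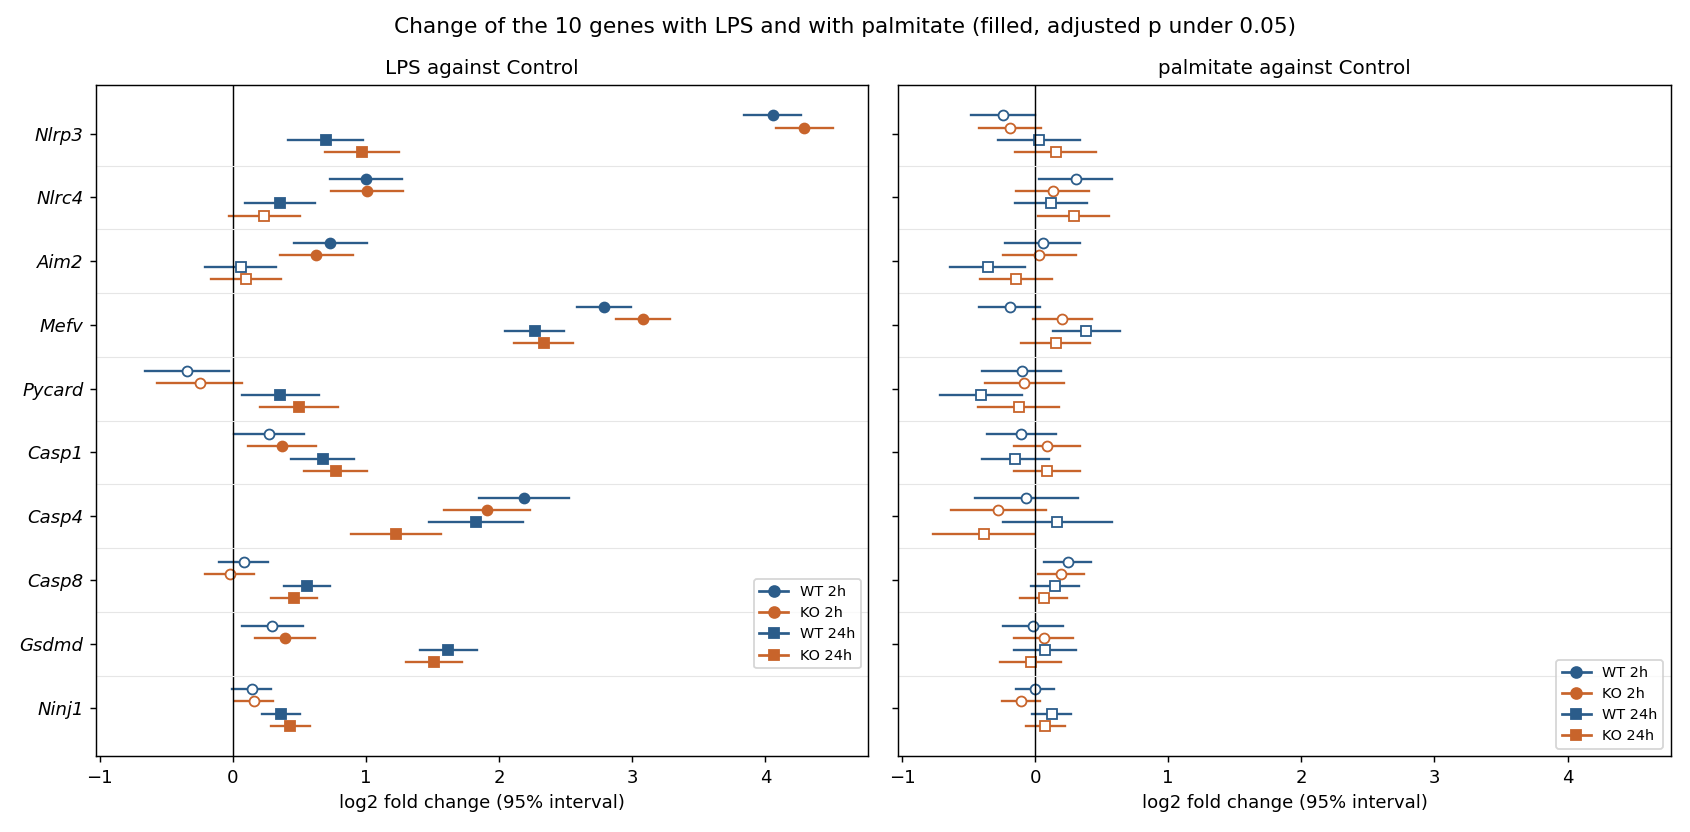
Log2 fold change from edgeR with 95% intervals for each of the 10 genes, for LPS against Control and palmitate against Control at 2 and 24 h in WT and KO. LPS points reach 4.06 for Nlrp3 in WT and 4.29 in KO at 2 h, and palmitate points lie between -0.40 and 0.39.

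Whether the LPS response differed between 2 and 24 h was tested as a difference of the 2 fold changes, each against the Control of its own time. In WT, 7 of the 10 genes had a response that differed, and in KO 9, where 32.6% and 33.4% of all genes did, and 7 genes passed in both. The responses of Nlrp3, Nlrc4, Aim2 and Mefv were smaller at 24 h, and those of Pycard, Casp8 and Gsdmd larger. Nlrp3 differed by -3.36 (SE 0.18, adjusted p = 4.24e-21) in WT and Gsdmd by 1.32 (SE 0.16, adjusted p = 9.52e-10). In KO the response of Casp4 was smaller at 24 h by 0.68, written as a difference of -0.68 (adjusted p = 0.0192), and the WT difference was -0.37 (95% interval -0.87 to 0.14). The Casp4 difference in KO lost its call without KO Control 2 h library 3, KO LPS 2 h library 3, KO Control 24 h library 2 or KO LPS 24 h library 3, over -0.82 to -0.52. That call was also lost in the fit of all genes with a count (-0.671). Casp1 did not pass in either genotype, at 0.40 in WT (0.05 to 0.75) and 0.40 in KO (0.05 to 0.75), though the WT value passed without WT LPS 2 h library 1, WT Control 24 h library 2 or WT LPS 24 h library 2 (over 0.29 to 0.49), and the KO value without KO Control 2 h library 3, KO LPS 2 h library 1, KO Control 24 h library 1 or KO LPS 24 h library 2 (over 0.34 to 0.52).

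**Figure D4:**
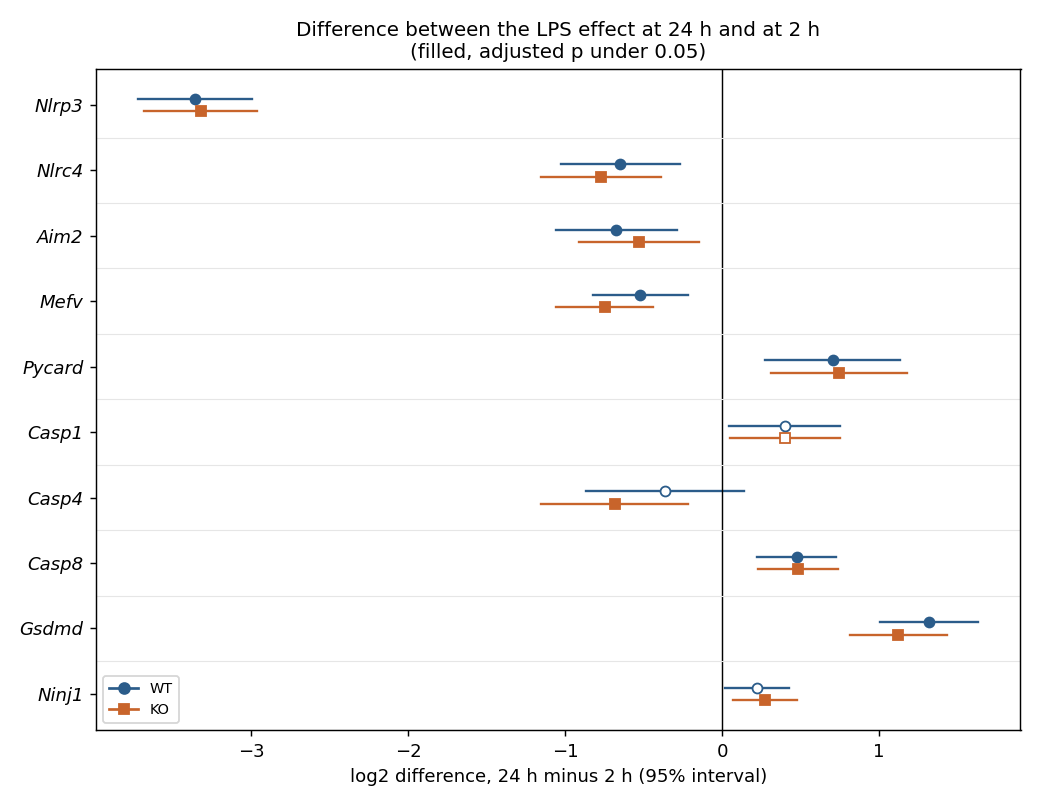
Log2 fold change of LPS against Control at 24 h minus that at 2 h, with 95% intervals, for each of the 10 genes in WT (circles) and KO (squares), filled where the adjusted p is under 0.05. Nlrp3 lies far to the left at -3.36 in WT and -3.32 in KO, and Gsdmd farthest to the right at 1.32 and 1.12.

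Palmitate was compared with Control to ask whether the fatty acid alone changes these genes. By edgeR none of the 10 passed in WT or KO at 2 or 24 h, where 0.275% (WT 2 h), 0.112% (KO 2 h, of which 0.0774% higher), 0.852% (WT 24 h) and 0.877% (KO 24 h) of all genes did. At an unadjusted p under 0.05 the counts were 3, 1, 3 and 2 of the 10 genes in that order, beside 866, 536, 1049 and 927 of the 11624 genes tested, and DESeq2 called 0 of the 10 in each. The lowest adjusted p was 0.433, 1.0, 0.181 and 0.555. Taking the 95% intervals over the 10 genes together, the lowest bound was 0.589-fold (KO 24 h) and the highest 1.56-fold (WT 24 h).

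Nlrp3 had 45.0, 43.5 and 54.2 CPM with palmitate at 2 h in WT, beside 58.8, 59.2 and 51.3 CPM in Control. These overlapped, at a log2 difference of -0.24. The differences of Nlrp3 were -0.19 in KO at 2 h (95% interval -0.42 to 0.04), 0.03 in WT at 24 h (-0.28 to 0.34) and 0.15 in KO at 24 h (-0.15 to 0.46).

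Mefv had 34.1, 30.5 and 34.5 CPM with palmitate at 24 h in WT, all above the 24.7, 26.6 and 24.5 CPM of Control, at a log2 difference of 0.39 (0.13 to 0.64) that did not pass. Pycard had 28.5, 20.9 and 28 CPM there, all below 31.2, 36.2 and 34.5 CPM, at -0.40 (-0.71 to -0.10). Casp8 had 87.7, 83.6 and 83.6 CPM with palmitate at 2 h in WT, all above 72.6, 70.6 and 72.0 CPM, at 0.24 (0.07 to 0.42). Counted by libraries that do not overlap, 2, 0, 2 and 3 of the 10 genes were separated in WT 2 h, KO 2 h, WT 24 h and KO 24 h, where 14.9%, 11.2%, 15% and 14.3% of all genes were.

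Compared directly with palmitate rather than Control, LPS gave 7 of the 10 genes higher in WT at 2 h and 7 in KO. Of all genes 22.5% changed there in WT (14% higher) and 25.9% in KO (15.6% higher). At 24 h, 9 of the 10 genes were higher in WT and 8 in KO. Of all genes 39.5% changed there in WT (19.5% higher) and 40.7% in KO (19.8% higher). The log2 difference of Nlrp3 was 4.30 in WT and 4.48 in KO at 2 h, and 0.67 and 0.82 at 24 h. That of Mefv was 2.98 and 2.88 at 2 h, and 1.88 and 2.18 at 24 h. For Gsdmd the values were 0.31 and 0.33 at 2 h, and 1.54 and 1.55 at 24 h. At 2 h the Gsdmd call was lost in WT without palmitate library 1 or 3 or any LPS library (over 0.22 to 0.38), and in KO without palmitate library 1 or 2 or LPS library 1 or 3 (over 0.22 to 0.41). The WT call was also lost in the fit of all genes with a count (0.301). The KO call was also lost when only the libraries compared were fitted (0.319). Casp1 in WT at 2 h, at 0.38, lost its call without palmitate library 2 or 3 or LPS library 1 or 3 (over 0.29 to 0.49), and Ninj1, at 0.14, gained one without LPS library 1 (over 0.04 to 0.22). In WT at 24 h Aim2, at 0.42, lost its call without palmitate library 2 or LPS library 1 or 3 (over 0.34 to 0.53), and Ninj1, at 0.24, without LPS library 2 (over 0.15 to 0.30). Casp8 in KO at 2 h, at -0.22, was called lower without palmitate library 2 or LPS library 3 (over -0.32 to -0.11). These comparisons use the same LPS libraries as those against Control. Of the 6 macrophage markers 1 was lower at 2 h in each genotype. In KO 1 of 7 granulocyte precursor and 1 of 3 dendritic cell markers were higher at 2 h. At 24 h, 3 macrophage markers were higher and 2 lower in WT, and 4 and 2 in KO. Granulocyte precursor markers gave 2 and 3 in WT, and 1 and 4 in KO. In KO at 24 h the 2 fibroblast markers and the T or NK cell marker tested were higher, and 1 dendritic cell marker was lower. The part of these markers was not tested.

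The libraries labelled KO and WT were compared within each treatment and time to ask whether IRF5 bears on these genes. A limit is that Irf5 itself was not lower under the KO label, and was higher in most conditions. The KO mice also carry the recombinase in Lyz2, and Lyz2 was lower in KO in each condition. Deletion of Irf5, the recombinase and the lower Lyz2 therefore cannot be told apart in these comparisons. At Control 0 h, 3 of the 10 genes were higher in KO and none lower, where 12.5% of all genes changed, 6.4% higher and 6.06% lower. The median log2 fold change was 0.34 over the 10 genes and 0.00 over all genes tested. Gsdmd had 36.9, 45.6 and 44.7 CPM in WT and 59.5, 58.6 and 62.1 CPM in KO, 1.41-fold higher (log2 0.50, SE 0.11, adjusted p = 0.00164). Aim2 had 18.5, 15.3 and 22.2 CPM in WT and 25.9, 25.7 and 25.9 CPM in KO, 1.38-fold higher (adjusted p = 0.021). Mefv had 18.8, 17.7 and 18.7 CPM in WT and 20.6, 22.9 and 28.6 CPM in KO, 1.31-fold higher (adjusted p = 0.046). None of these groups overlapped.

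The call of Gsdmd was kept without any 1 of the 6 libraries, over log2 0.41 to 0.55. Aim2 lost its call without WT library 1 or 2 or KO library 1 or 3, over 0.33 to 0.62, and Mefv without any 1 of the WT libraries, without KO library 3 (over 0.26 to 0.49) and when only these 6 libraries were fitted (0.39). The count of 3 fell to 1 without WT library 2 or KO library 3. Nlrp3, at 20.6, 22.7 and 17.6 CPM in WT and 25.5, 27.7 and 25.2 CPM in KO, did not overlap and did not pass (log2 0.37, 95% interval 0.08 to 0.67, adjusted p = 0.0925), though it passed in the fit of all genes with a count. Casp4 was likewise separated without passing (0.42, 0.02 to 0.83), and Pycard stood at -0.35 (-0.64 to -0.05). Nlrc4, at 0.30, passed without WT library 1, over 0.18 to 0.46. In all, 5 of the 10 genes did not overlap, where 28% of all genes did not.

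Marker genes of other cells moved with the same comparison. Markers of granulocyte precursors summed to between 100 and 116 CPM in WT Control 0 h and between 140 and 156 CPM in KO, with 1 of 7 tested higher. Fibroblast markers summed to between 0.353 and 0.607 CPM in WT and between 27.1 and 47.1 CPM in KO, with 2 of 2 tested higher. In the other 6 conditions 0 were called, with sums given below. Of the 6 macrophage markers 1 was higher and 3 lower at Control 0 h. The B cell marker tested (log2 -1.0) and the T or NK cell marker tested (log2 -0.56) were lower in KO. The part of these markers in the result was not tested.

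In the other 6 conditions edgeR called none of the 10 genes between KO and WT, where 0.49% of all genes passed at Control 2 h (0.232% higher), 0.146% with palmitate 2 h (0.043% lower), 0.465% with LPS 2 h, 0.12% at Control 24 h (0.086% higher), 0.0688% with palmitate 24 h and 0.146% with LPS 24 h. At an unadjusted p under 0.05 the counts were 2, 3, 3, 1, 1 and 0 of the 10 genes, beside 1172, 1032, 1342, 587, 891 and 1056 of the 11624 tested, and DESeq2 called 1, Ninj1 with palmitate at 2 h, and 0 in each of the others. Ninj1 had 385, 433 and 403 CPM with palmitate at 2 h in WT and 361, 324 and 328 CPM in KO, at log2 -0.27 (-0.41 to -0.13, adjusted p = 0.108). Its libraries did not overlap there, and its difference was below 0 in each of the 7 conditions. With LPS at 24 h the Ninj1 libraries overlapped, and 1 of 10 alternative fits changed the sign. By libraries that do not overlap, 2, 1, 1, 1, 3 and 0 of the 10 genes were separated in the 6 conditions in the order above, where 16.9%, 16.1%, 12.8%, 11.6%, 12.5% and 13.4% of all genes were.

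Nlrp3 with LPS at 2 h was higher in each KO library than in each WT library, at log2 0.25 (0.08 to 0.43, adjusted p = 0.198). Casp4 was separated in the Control at 2 h (0.49, 0.12 to 0.86) and at 24 h (0.58, 0.19 to 0.97), with KO higher and no call. With palmitate at 24 h the KO libraries of Mefv (26.4, 26.6 and 25 CPM) were all below those of WT (34.1, 30.5 and 34.5 CPM). This Mefv difference of log2 -0.35 was not called, and its direction was opposite to that at Control 0 h. Ninj1 was also separated there with KO lower, and Aim2 with KO higher. The markers of granulocyte precursors were higher in KO for 5 of 7 tested at Control 2 h, 4 with palmitate 2 h, 3 with LPS 2 h, 4 at Control 24 h, 0 with palmitate 24 h and 1 with LPS 24 h. Fibroblast markers were not called here. At Control 2 h they summed to 50.5 to 78.1 CPM in KO against 0.385 to 38.4 CPM in WT. At Control 24 h the sums were 30.7 to 97.9 against 2.86 to 30.5 CPM. In KO they ran from 0.804 to 226 CPM with palmitate 2 h and from 0.702 to 101 CPM with LPS 2 h. With LPS 24 h the KO sums ran from 0.186 to 123 CPM, and with palmitate 24 h from 0.0 to 4.84 CPM. The highest WT sums there were 25.9, 0.647, 2.25 and 8.32 CPM in that order. The part of these markers in the differences was not tested.

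**Figure D5:**
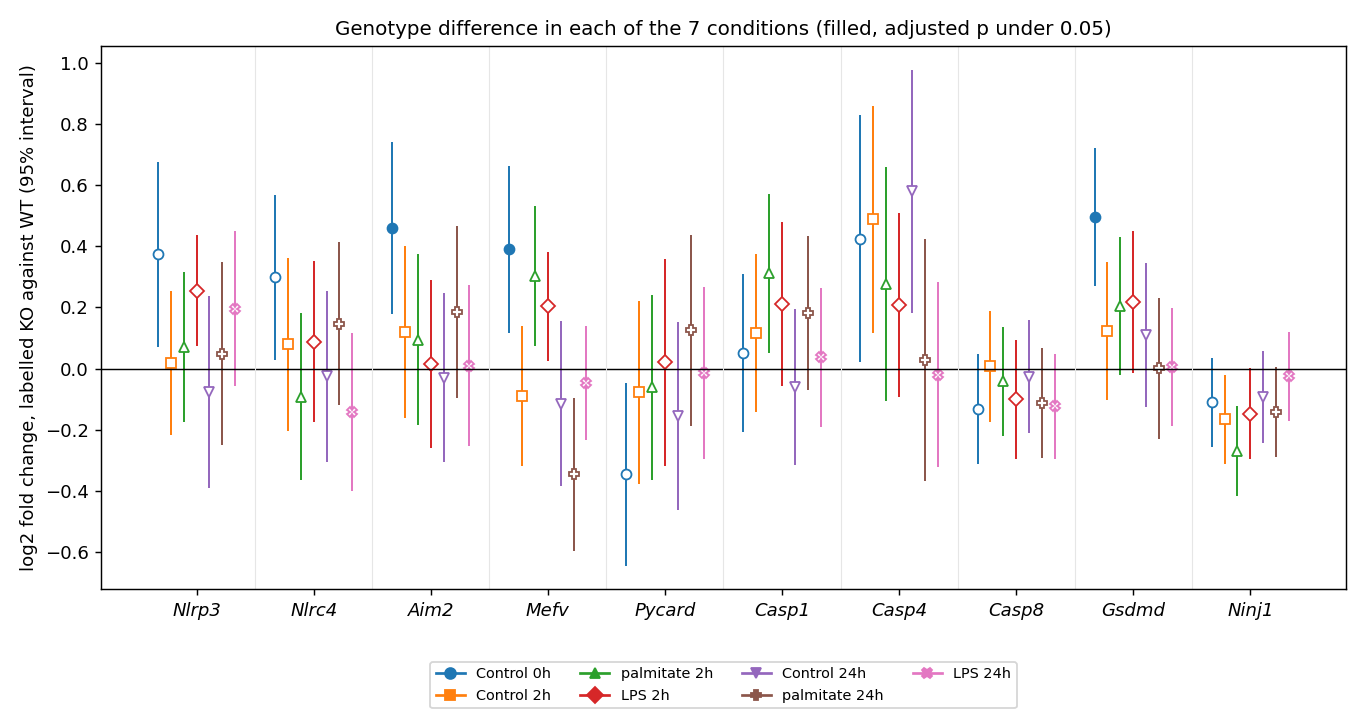
Log2 difference of KO from WT with 95% intervals for each of the 10 genes in the 7 conditions. Gsdmd at 0.50, Aim2 at 0.46 and Mefv at 0.39 in Control 0 h passed the test, and no gene passed in the other 6 conditions.

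Whether genotype changed the response to LPS or palmitate was tested as an interaction. None of the 10 genes passed by edgeR for LPS at 2 or 24 h or palmitate at 2 or 24 h, and over all genes the counts were 0, 1, 0 and 0. At an unadjusted p under 0.05 the counts of the 10 were 1, 1, 1 and 0, beside 810, 628, 486 and 411 of the 11624 tested, and DESeq2 called 0 of the 10. The interaction of Nlrp3 with LPS at 2 h was 0.24 (95% interval -0.06 to 0.53), and that of Mefv 0.29 (0.01 to 0.58). Casp4 with LPS at 24 h had -0.60 (-1.10 to -0.10, adjusted p = 0.924), and Mefv with palmitate at 2 h had 0.39 (0.08 to 0.71, adjusted p = 0.998).

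Some of these genes differed between the Control groups of different times. The labels give no batch or handling of the harvests, so these cannot be told apart from time in culture. From 0 to 2 h Nlrp3 rose from 20.6, 22.7 and 17.6 to 58.8, 59.2 and 51.3 CPM in WT (2.79-fold, adjusted p = 9.65e-13), and 2.18-fold in KO (adjusted p = 2.68e-09). Mefv rose 2.25-fold in WT (adjusted p = 1.21e-10) and 1.61-fold in KO (adjusted p = 3.1e-05). These were the 2 genes called in WT, where 14.3% of all genes changed, and in KO Nlrc4 was called too, as lower by a log2 difference of -0.39 (adjusted p = 0.0464), where 12.1% changed. The Nlrc4 call was lost without any 1 of the 6 libraries, over -0.42 to -0.34. It was also lost in DESeq2, in the fit of all genes with a count and when only the libraries compared were fitted. Of the 6 macrophage markers 1 was higher and 3 lower in WT from 0 to 2 h, and 0 and 1 in KO. Of the 7 markers of granulocyte precursors tested 1 was lower in WT and 0 called in KO, and the T or NK cell marker tested was higher in KO.

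From 0 to 24 h, 3 of the 10 genes changed in WT (12.1% of all genes) and 2 in KO (8.17%). Ninj1 fell in WT from 439, 406 and 421 to 298, 312 and 289 CPM (log2 -0.50, adjusted p = 1.32e-06), and in KO from 393, 364 and 416 to 288, 292 and 262 CPM (log2 -0.48, adjusted p = 3.58e-06). Aim2 (log2 0.55, adjusted p = 0.00402) and Mefv (log2 0.46) rose in WT, and Gsdmd fell in KO (log2 -0.35, adjusted p = 0.0417). The Aim2 call was lost without WT Control 0 h library 2, over 0.43 to 0.71, and the Mefv call without that library or WT Control 24 h library 2, over 0.43 to 0.51, which left 1 gene called without the former. The Gsdmd call was lost without any 1 of 5 libraries (KO Control 0 h library 1, 2 or 3, KO Control 24 h library 1 or 2), over -0.42 to -0.30, which left 1 gene. In WT Casp1, at 0.34, passed without WT Control 24 h library 1, over 0.26 to 0.42, and when only the libraries compared were fitted (0.345). Nlrp3 was not called from 0 to 24 h in either genotype. At Control 24 h it had 26.9, 21.6 and 22.1 CPM in WT and 17.6, 22.1 and 24.8 CPM in KO. Over this time the markers of granulocyte precursors were higher for 2 of 7 tested in WT and 6 in KO, and the macrophage markers were 1 higher and 3 lower of 6 in WT and 2 and 2 in KO. In WT 1 of 3 dendritic cell markers was higher and the T or NK cell marker lower. The part of markers in the differences between Control times was not tested.

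Other genes of the pathway were read from 6 lists, without a test of a list as a set. Their counts stand beside the shares of all genes called with LPS. At 2 h these were 14% higher and 9.1% lower in WT, and 14.7% and 9.16% in KO. At 24 h they were 19.6% and 19.9% in WT, and 19.9% and 21% in KO. The cytokines that caspase-1 matures behaved unequally. Il1b, which encodes IL-1β, had 3.29, 3.97 and 4.00 CPM in WT Control and 686, 832 and 651 CPM in WT LPS at 2 h, a 190-fold rise (log2 7.57, SE 0.18), and rose 246-fold in KO (log2 7.94, SE 0.19). Il18 lay between 1.03 and 3.90 CPM in the WT LPS 2 h libraries and was not called in any LPS comparison, with log2 -0.05 in WT (95% interval -1.0 to 0.89) and 0.60 in KO (-0.42 to 1.61) at 2 h. Il1rn, the receptor antagonist, rose 14.5-fold in WT at 24 h (log2 3.86) and by 3.90 on the log2 scale in KO. Of the 7 IL-1 family and receptor genes tested, LPS raised 3 and lowered 0 at 2 h in WT, with 3 and 0 in KO, and raised 5 and lowered 0 at 24 h in WT, with 4 and 1 in KO. Their median log2 fold changes were 0.49, 0.60, 1.44 and 1.57 in that order.

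Priming and licensing genes, 15 of them tested, gave 8 higher and 4 lower at 2 h in WT, 8 and 4 in KO, 10 and 2 at 24 h in WT and 10 and 3 in KO. Their medians were 0.89, 0.93, 0.57 and 0.71. Irf1, a transcription factor of interferon responses, rose by log2 3.31 in WT and 3.29 in KO at 2 h. Gbp2, a guanylate-binding protein that coats bacteria, rose by 3.55 at 2 h and 62.8-fold at 24 h in WT (log2 5.97). Txnip, which binds thioredoxin and NLRP3, fell from 91.9, 103 and 87.7 CPM to 42.2, 45.8 and 38.8 CPM at 2 h in WT (log2 -1.16, SE 0.10, adjusted p = 3.01e-14), and its KO value was -1.15. Nek7, a kinase that NLRP3 needs for assembly, was lower at 24 h by log2 -0.27 in WT and -0.59 in KO.

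The 6 negative regulators tested gave 3 higher and 0 lower at 2 h in WT, 4 and 1 in KO, 3 and 1 at 24 h in WT and 3 and 1 in KO, with medians of 1.47, 1.22, 0.33 and 0.32. Tnfaip3, the deubiquitinase A20 that restrains NF-κB, rose by log2 4.46 in WT and 4.37 in KO at 2 h, and by 0.77 in each at 24 h. Otulin, another deubiquitinase, was lower at 24 h by -0.37 in WT and -0.29 in KO.

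Of 8 other NLR sensors tested, LPS gave 0 higher and 2 lower at 2 h in WT, 0 and 0 in KO, 3 and 1 at 24 h in WT and 4 and 2 in KO, with medians of -0.32, -0.32, 0.32 and 0.42. The 2 lower at 2 h in WT were Nlrx1 (log2 -0.69) and Nlrp1b (-0.62). Naip2 and Naip6, receptors upstream of NLRC4, were higher at 24 h by 0.69 and 0.49 in WT and by 0.58 and 0.58 in KO, though Naip genes are near-identical copies whose reads may have been split between them.

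Of 12 genes of related cell death, 1 was higher and 1 lower at 2 h in WT, 1 and 2 in KO, 3 and 4 at 24 h in WT and 4 and 2 in KO, with medians of -0.10, -0.25, 0.11 and 0.11. Cflar, an inhibitor of caspase-8, rose by log2 2.67 in WT and 2.58 in KO at 2 h. Mlkl, the effector of necroptosis, rose by 1.81 in WT and 2.06 in KO at 24 h. Of 8 genes of the ESCRT machinery, which mends membrane pores, 2 were higher and 0 lower at 2 h in WT, 0 and 0 in KO, 2 and 1 at 24 h in WT and 2 and 0 in KO, with medians of 0.13, 0.12, 0.18 and 0.16. Chmp4b rose by 0.85 in WT and 0.85 in KO at 24 h.

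Palmitate changed 1 gene of the 6 lists, Irf1, which was lower in KO at 24 h (log2 -0.47, SE 0.12, adjusted p = 0.0342). Between KO and WT at Control 0 h 1 of 8 other NLR sensors, 4 of 7 IL-1 family and receptor genes, 3 of 15 priming and licensing genes and 1 of 8 ESCRT genes were called, and 0 of 12 genes of related cell death and 0 of 6 negative regulators, where 12.5% of all genes were. Cd14 (log2 0.64), the co-receptor of LPS, and Myd88 (0.30), an adaptor in LPS signalling, were higher. Nek7 (-0.28), Il1rn (-0.54), Il18bp (-0.55), which binds IL-18, and Vps4b (-0.28), of the ESCRT machinery, were lower. Also higher were Nlrp1b (0.78) and, at few counts, Il1b and Il1r1, which lay between 0.132 and 0.181 CPM and between 0.158 and 0.794 CPM in WT and between 0.514 and 2.52 CPM and between 2.16 and 2.75 CPM in KO. With LPS at 2 h Gbp2 was higher in KO by 0.48 (adjusted p = 0.034).

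Genes of like pattern were sought by Pearson's r over the 14 group means, a description in which each point pools 3 libraries and the LPS groups carry most of the spread. Nlrp3 was most like Nfkb1 (0.998), Tnfaip3 (0.997) and Gem (0.994). Mefv was most like Acod1 (0.995), Birc3 (0.995) and Jak2 (0.992), and Casp4 like Clec2d (0.980), Igsf6 (0.980) and Il1b (0.978). Gsdmd was most like Trim12a (0.986), Stat2 (0.982) and Parp3 (0.980), and Casp1 like Hcls1 (0.973), Sppl2a (0.963) and Glrx (0.959). Among the 10 genes themselves r was highest between Casp4 and Mefv (0.968) and between Casp1 and Gsdmd (0.892), and was -0.39 between Nlrp3 and Pycard.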

How the data were processed

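The deposited table holds raw counts per gene, which the authors made from paired-end reads of ribosome-depleted, strand-specific total RNA. The submitters' processing notes name fastp 0.19.11, STAR 2.7.3a and mm10; the annotation release and strand setting are not given in the sources used here. All 42 libraries in 14 groups entered 1 fit in edgeR 4.0.16 (R 4.3.3) with a mean per group, TMM scaling and the package's filter on low counts (11624 genes kept). Quasi-likelihood tests used Benjamini-Hochberg adjustment over all genes tested, in 29 comparisons. Standard errors were the log2 fold change divided by the square root of F. Symbols matched 32620 of 37310 identifiers, and positions are from the GRCm38 annotation. Exact permutation of 3 against 3 libraries cannot reach 0.05, so no such test was made. On simulated counts for LPS against Control in WT at 2 h (11146 genes), 91% of changed genes were recovered, and 97.2% of those changed 4-fold. Of the genes called, 6.67% were unchanged ones. The changes were 2-fold or 4-fold, up or down, in a small set of genes with an expected count over 10, in WT LPS 2 h alone. Recovery of smaller changes was not simulated. Depth was between 2848793 and 7743442 counts, and the lowest count of the 10 genes in any library was 27 (Casp4).

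The 10 genes and the 6 pathway lists were chosen with earlier results of these data known. Any of the 10 could be named in every comparison, and in several comparisons values are printed for only some of them. Of each list, at most 2 genes per direction and treatment comparison could be named. These were those with the smallest adjusted p and a mean of at least 1 CPM. Any called gene of other comparisons could be named too, as could Il1a, Il1b, Il18, Nek7, Txnip, Irf5 and Lyz2. Alternatives were RLE size factors, all genes with a count, only the libraries compared, DESeq2 1.42.0, each library left out in turn and the study's threshold for KO against WT.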

Additional observations from a re-analysis of the deposited data

Results flagged for a closer look

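The response to LPS differed between 24 h and 2 h for 7 of the 10 genes in WT and 9 in KO, where 32.6% and 33.4% of all genes tested differed, by the difference of the 2 log2 fold changes in edgeR, and the values are differences of 24 h minus 2 h. In WT it was smaller at 24 h for Nlrp3 (-3.36), Aim2 (-0.67), Nlrc4 (-0.65) and Mefv (-0.52). It was larger at 24 h in WT for Gsdmd (1.32), Pycard (0.70) and Casp8 (0.48). In KO the response was smaller at 24 h for Nlrp3 (-3.32), Nlrc4 (-0.77), Mefv (-0.75), Casp4 (-0.68) and Aim2 (-0.53). It was larger at 24 h in KO for Gsdmd (1.12), Pycard (0.75), Casp8 (0.48) and Ninj1 (0.27). Pycard in WT lost its call without WT LPS 2 h library 3, over 0.56 to 0.88. Aim2 in KO lost it without KO Control 2 h library 3, KO LPS 2 h library 3, KO Control 24 h library 2 or 3 or KO LPS 24 h library 1, over -0.58 to -0.42. The Aim2 call was also lost in the fit of all genes with a count (-0.517), as was the KO call of Casp4 (-0.671). Ninj1 in KO lost its call without KO Control 2 h library 3, KO LPS 2 h library 1, KO Control 24 h library 3 or KO LPS 24 h library 1, over 0.24 to 0.32. In WT Ninj1, at 0.22, passed without WT LPS 2 h library 2 or WT LPS 24 h library 1, over 0.14 to 0.33.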

How the results depend on the processing

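No value of the 10 genes that was called in any fit changed sign under any alternative tried. Of 290 values, 89 were called, and 103 in at least 1 fit. Under RLE size factors all 103 kept their side of the threshold; DESeq2 lost 1 and gained 1, the fit of all genes with a count lost 5 and gained 3, and so did the fit of only the libraries compared. Leaving out 1 library lost 67 and gained 18 of 732. Between KO and WT the count of 3 at Control 0 h ranged from 1 to 3 without 1 library. It was 0 when the study's threshold of unadjusted p and fold (log2 over 1 in size) was put on the edgeR values. The differences of the 10 genes there lay between -0.35 and 0.50, so the fold cut alone fixed that 0. The study itself used DESeq2. With palmitate at 2 h the count of 0 became 1 (Ninj1) with all genes, with only the libraries compared and in DESeq2, and with LPS at 2 h it became 1 (Nlrp3) with all genes. From 0 to 24 h of Control the counts of 3 in WT and 2 in KO ranged from 1 to 4 and from 1 to 2 without 1 library. Depth limits the genes of few counts, such as Casp4, whose intervals are the widest. No paired analysis was possible because the table's columns carry no replicate number.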
